A study of Mus musculus with 6 samples.

Results

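The cell cycle and proliferation genes described here were 35 genes picked by symbol from the gene table of 27998 genes: 27 that act in mitosis, 7 that act in S phase, and the chromatin gene Hmgb2. The 35 symbols were each found once, and their gene IDs were all annotated as protein coding in GENCODE vM21 (GRCm38, the same assembly as mm10). They were followed in droplet single-cell libraries of the hypothalamic-pituitary-adrenal axis, the hormone relay from the paraventricular nucleus of the hypothalamus (PVN) through the pituitary to the adrenal gland. All mice were C57BL/6 and 10 weeks old. In each tissue the mice of the stress group were defeated socially over 21 days, a chronic stress, and those of the control group were not stressed. The PVN was dissected by hand with tissue around it, and the stress and control cells of a tissue were run on the same chip. Each of the 6 groups was 1 library made from the tissue of 5 pooled mice, so no difference between stress and control could be tested, and each compares a pair of pools. After filters, 3459 stress and 3512 control barcodes were kept in the PVN, 4880 stress and 4944 control barcodes in the pituitary, and 2742 stress and 2161 control barcodes in the adrenal. The libraries held between 29059956 (adrenal control) and 53244403 (pituitary stress) unique molecular identifiers (UMIs, tags that mark single RNA molecules). The median kept barcode held 5579 UMIs in PVN stress and 5781 in PVN control, 9920.5 in pituitary stress and 9604.5 in pituitary control, and 10143.5 in adrenal stress and 10549 in adrenal control. The labelled tissues matched their markers: neuron-like cells led the PVN (1578 stress and 1591 control barcodes), growth hormone-producing somatotrope-like cells the pituitary (2693 stress and 2755 control) and steroid-producing adrenocortical-like cells the adrenal (1785 stress and 1593 control). Any pair of libraries shared between 10 and 39 barcode sequences, at most 0.974% of the smaller library.

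Dividing cells make these genes in waves. Around S phase, when DNA is copied, cells express the replication clamp Pcna, the helicase subunits Mcm2, Mcm3 and Mcm5, and the nucleotide-synthesis enzymes Rrm2, Tyms and Tk1. Towards mitosis they express Cdk1 with its cyclins Ccna2, Ccnb1 and Ccnb2, spindle and kinetochore genes such as Cenpf, Bub1, Kif11 and Spc25, and Ube2c and Cdc20, which serve the ligase that ends mitosis. Most cells of the adult brain, pituitary and adrenal cortex are not dividing, and the tissues are known to hold small dividing pools, such as the oligodendrocyte precursors of the brain and cells under the capsule of the adrenal.

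Promoters of mitotic genes are known for a pair of short elements, the NF-Y box (CCAAT) and the cell cycle genes homology region (CHR, here TTTGAA or TTCGAA), while many S-phase genes carry E2F sites (here TTTCCCGC, TTTGGCGC, TTTCGCGC or TTTGCCGC). The letters of each element were searched on both strands from 250 bases before to 50 bases after each start in RefSeq's GRCm38.p6 promoters, which held 31 promoters of 30 of the 35 genes (Prc1 had more than 1, and Aurkb, Ccna2, Kif20a, Spc24 and Tpx2 had no entry). An NF-Y box was found in 21 of 23 promoters of mitotic genes (91.3%), in 5 of 7 of S-phase genes (71.4%) and in 37.4% of all 32851 promoters. A CHR was found in 20 of 23 mitotic promoters (87.0%), in 1 of 7 S-phase promoters (14.3%) and in 19.2% of all promoters. The same 20 mitotic promoters held both elements, against 7.52% of all promoters. E2F letters were found in 1 mitotic promoter, in 2 of 7 S-phase promoters (28.6%) and in 2.26% of all. Neighbouring NF-Y boxes lay 30 to 34 bases apart in 10 of 32 such pairs of the mitotic promoters (31.3%), against 9.41% of 5418 pairs over all promoters. A match describes letters, not binding, and these libraries hold no measurement of binding. The stretches below run from base -160 to base -6 before the RefSeq start, 5′ to 3′, and are shown because they let the pattern be read in genes whose levels are described here, with NF-Y boxes, CHRs and E2F letters in capitals. The first 4 belong to mitotic genes and the last 2 to S-phase genes.
Ube2c (chr2:164769769-164769923, plus strand): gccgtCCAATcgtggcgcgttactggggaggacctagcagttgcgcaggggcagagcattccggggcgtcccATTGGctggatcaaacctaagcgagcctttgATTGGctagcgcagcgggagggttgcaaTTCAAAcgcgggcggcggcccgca
Kif11 (chr19:37376222-37376376, plus strand): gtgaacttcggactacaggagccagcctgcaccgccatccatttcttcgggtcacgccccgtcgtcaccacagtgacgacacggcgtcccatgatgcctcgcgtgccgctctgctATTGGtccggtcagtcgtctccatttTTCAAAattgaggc
Cdk1 (chr10:69352918-69353072, minus strand): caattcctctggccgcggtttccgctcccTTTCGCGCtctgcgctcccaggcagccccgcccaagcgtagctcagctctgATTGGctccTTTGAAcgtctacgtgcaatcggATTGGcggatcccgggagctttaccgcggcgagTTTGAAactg
Top2a (chr11:99024195-99024349, minus strand): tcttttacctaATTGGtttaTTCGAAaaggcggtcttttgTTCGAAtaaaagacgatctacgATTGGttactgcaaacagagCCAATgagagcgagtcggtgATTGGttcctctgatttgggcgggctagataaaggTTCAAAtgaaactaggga
Mcm5 (chr8:75109349-75109503, plus strand): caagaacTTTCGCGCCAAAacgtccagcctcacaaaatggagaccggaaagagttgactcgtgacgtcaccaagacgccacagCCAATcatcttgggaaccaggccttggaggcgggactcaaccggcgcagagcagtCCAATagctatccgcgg
Rrm2 (chr12:24708094-24708248, plus strand): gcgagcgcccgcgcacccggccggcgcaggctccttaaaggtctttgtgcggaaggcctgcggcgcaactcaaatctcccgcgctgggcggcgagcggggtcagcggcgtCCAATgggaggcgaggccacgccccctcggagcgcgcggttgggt
Within the printed stretches, NF-Y boxes of Ube2c began at -155, -88 and -57 and the CHR at -29. Kif11, the motor that pushes spindle poles apart, had 1 NF-Y box at -45 and a CHR at -19. The S-phase gene Mcm5 had overlapping E2F letters at -153 and -149 and NF-Y boxes at -77 and -22 but no CHR in the window, and Rrm2 had 1 NF-Y box at -50 and neither of the other elements.

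The first question was how many barcodes carried several of these genes at once. Most carried few: 1754 stress and 1737 control PVN barcodes, 2850 stress and 2933 control pituitary barcodes, and 487 stress and 371 control adrenal barcodes held no UMI of any of the 35. At the other end stood a small group in which most of the genes were found together, up to all 35 in an adrenal stress barcode. In the PVN the groups were apart, since no barcode held 8 to 14 of the genes in either library. At least 5 of the genes were found in 20 stress and 25 control PVN barcodes, which is 0.578% of stress (95% exact interval 0.354 to 0.892) and 0.712% of control (0.461 to 1.05). The pituitary had 44 stress and 16 control barcodes of this kind, 0.902% of stress (0.656 to 1.21) and 0.324% of control (0.185 to 0.525). The adrenal had 189 stress and 138 control barcodes, 6.89% of stress (5.97 to 7.91) and 6.39% of control (5.39 to 7.5). Stress minus control was -0.134 percentage points (PVN), 0.578 (pituitary) and 0.507 (adrenal). The intervals of stress and control overlapped in the PVN and the adrenal and did not overlap in the pituitary. These intervals cover counting error only and say nothing of the spread between mice.

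A limit of 5 genes did not separate the same kind of barcode in each tissue. In the adrenal, 101 stress and 98 control barcodes held 5 to 9 of the genes, and only 14 of each had a UMI of Mki67 or Top2a. Their median depth was 15155 UMIs in stress and 22596.5 in control, against 9953 in stress and 10284 in control barcodes with fewer than 5. Their median number of mitotic genes was 2 in stress and 1 in control, and the adrenocortical-like class held 71 of the stress and 80 of the control barcodes. In the PVN, 5 stress and 7 control barcodes of this range were ependymal-like, the ciliated cells that line the ventricle, with none that held Mki67 or Top2a. A stricter limit of 10 genes, added after these values were seen, left 8 stress and 7 control PVN barcodes, 32 stress and 10 control pituitary barcodes, and 88 stress and 40 control adrenal barcodes. That was 0.231% (0.0999 to 0.455) in stress and 0.199% (0.0802 to 0.410) in control in the PVN, 0.656% of stress (0.449 to 0.924) and 0.202% of control (0.0970 to 0.372) in the pituitary. It was 3.21% of stress (2.58 to 3.94) and 1.85% of control (1.33 to 2.51) in the adrenal. At this limit the intervals did not overlap in the pituitary or the adrenal. With each barcode thinned to 2000 UMIs and at least 3 genes required, there were 108 stress and 49 control barcodes in the adrenal, 38 stress and 14 control in the pituitary, and 15 stress and 23 control in the PVN. No barcode was below the thinned depth.

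**Figure D1:**
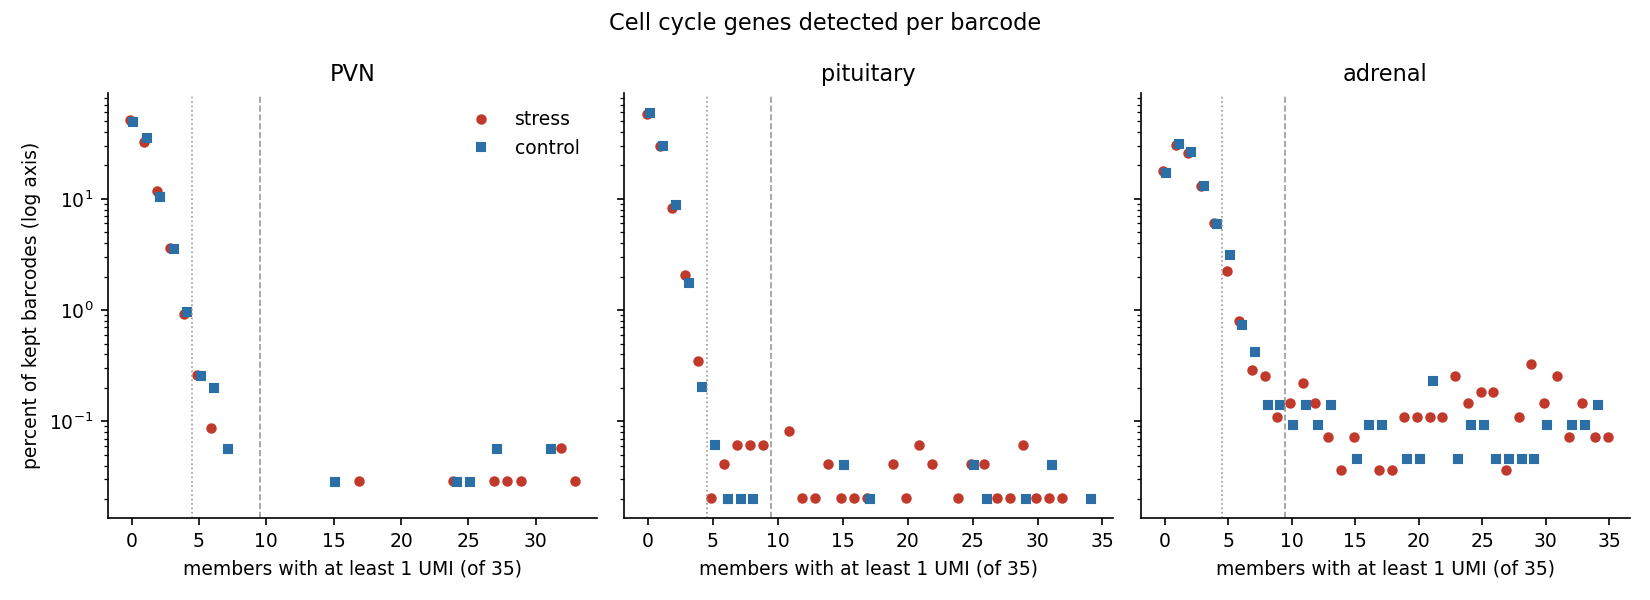
Percent of kept barcodes (log axis) by the number of the 35 cell cycle genes with at least 1 UMI, for stress (circles) and control (squares) in each tissue; numbers with no barcode are not drawn. On the axes, members are these genes. Barcodes right of the dotted line hold at least 5 and those right of the dashed line at least 10: the PVN is empty between 8 and 14 genes, and the adrenal has points at nearly every number.

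The 185 barcodes with at least 10 genes were looked up by cell class next, with classes taken from a clustering that left out the cell cycle genes. In the PVN they were oligodendrocyte precursor-like, the dividing glia of the adult brain, in 8 of 8 stress and 6 of 7 control barcodes, and the other control barcode was microglia-like. This was 4.97% (2.17 to 9.56) of 161 stress and 3.64% (1.35 to 7.75) of 165 control precursor-like cells. None of the 1578 stress and 1591 control neuron-like cells held 10 of the genes, a count that allows up to 0.190% in the stress library by a limit of 3 counts. In the pituitary, somatotrope-like cells held 23 stress and 6 control barcodes, 0.854% (0.542 to 1.28) of 2693 stress and 0.218% (0.0800 to 0.473) of 2755 control cells. Endothelial-like cells and cells like stem or folliculostellate cells (the Sox2-positive support cells) each held 2 in stress and 1 in control. Lactotrope-like cells held 1 in stress and 2 in control, macrophage-like cells 2 in stress and 0 in control, and the mural-like and unnamed clusters 1 each in stress and 0 in control. Corticotrope-like cells, which make the hormone that drives the adrenal, held 0 of 249 in stress and 0 of 277 in control. Most barcodes with at least 10 genes in the pituitary stress library were thus somatotrope-like, the largest class (2693 of 4880 kept stress barcodes). In that class the intervals of stress and control did not overlap. Its stress share was not the highest. From 2 barcodes each, shares were 1.64% (0.199 to 5.80) of 122 endothelial-like, 1.79% (0.217 to 6.30) of 112 macrophage-like and 1.08% (0.131 to 3.85) of 185 stem or folliculostellate-like stress cells. Those intervals overlapped the somatotrope-like interval. The mural-like class held 1 of 9, and lactotrope-like cells had 0.190%. Within the somatotrope-like class, cluster 0 held 15 of 897 stress and 4 of 1328 control cells, cluster 1 held 4 of 1256 stress and 1 of 923 control cells, and cluster 3 held 4 of 512 stress and 1 of 449 control cells.

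In the adrenal, adrenocortical-like cells held 50 stress and 33 control barcodes with at least 10 genes, 2.80% (2.09 to 3.68) of 1785 stress and 2.07% (1.43 to 2.90) of 1593 control cells, with overlapping intervals. Most of them, 48 in stress and 28 in control, sat in 1 cluster of 62 stress and 33 control cells. Only listed cell cycle genes had been left out when it was formed, and the part of unlisted ones was not tested. Macrophage-like cells held 27 in stress and 4 in control, which was 5.49% (3.65 to 7.88) of 492 stress cells and 1.31% (0.358 to 3.32) of 305 control cells. Those intervals did not overlap. Macrophage-like cluster 11 held 19 of its 101 stress cells and 1 of its 25 control cells, and cluster 1 held 8 of 391 stress and 3 of 280 control cells. Endothelial-like cells held 4 of 276 in stress and 0 of 132 in control, T or NK cell-like cells 3 of 31 in stress and 2 of 28 in control, and clusters with no name 4 in stress and 1 in control. The 3 stress barcodes of the T or NK cell-like class had no UMI of Cd3e, Cd3d, Cd3g, Lck, Skap1 or Nkg7. Klrd1 was the only marker of the class found in them, so the markers bear out that name poorly there. Adrenal macrophage-like cells were also a larger part of the stress library (492 of 2742 kept barcodes) than of the control library (305 of 2161). The chromaffin-like cells of the medulla, which make adrenaline, held 0 of 30 in stress and 0 of 19 in control. By the limit of 3 counts this allows up to 10% in stress and 15.8% in control, above the adrenocortical-like shares. Giving each barcode the class of its nearest neighbours with few cell cycle genes gave the same number of such barcodes in each class, except in the pituitary control library, with 7 somatotrope-like and 1 lactotrope-like in place of 6 and 2.

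**Figure D2:**
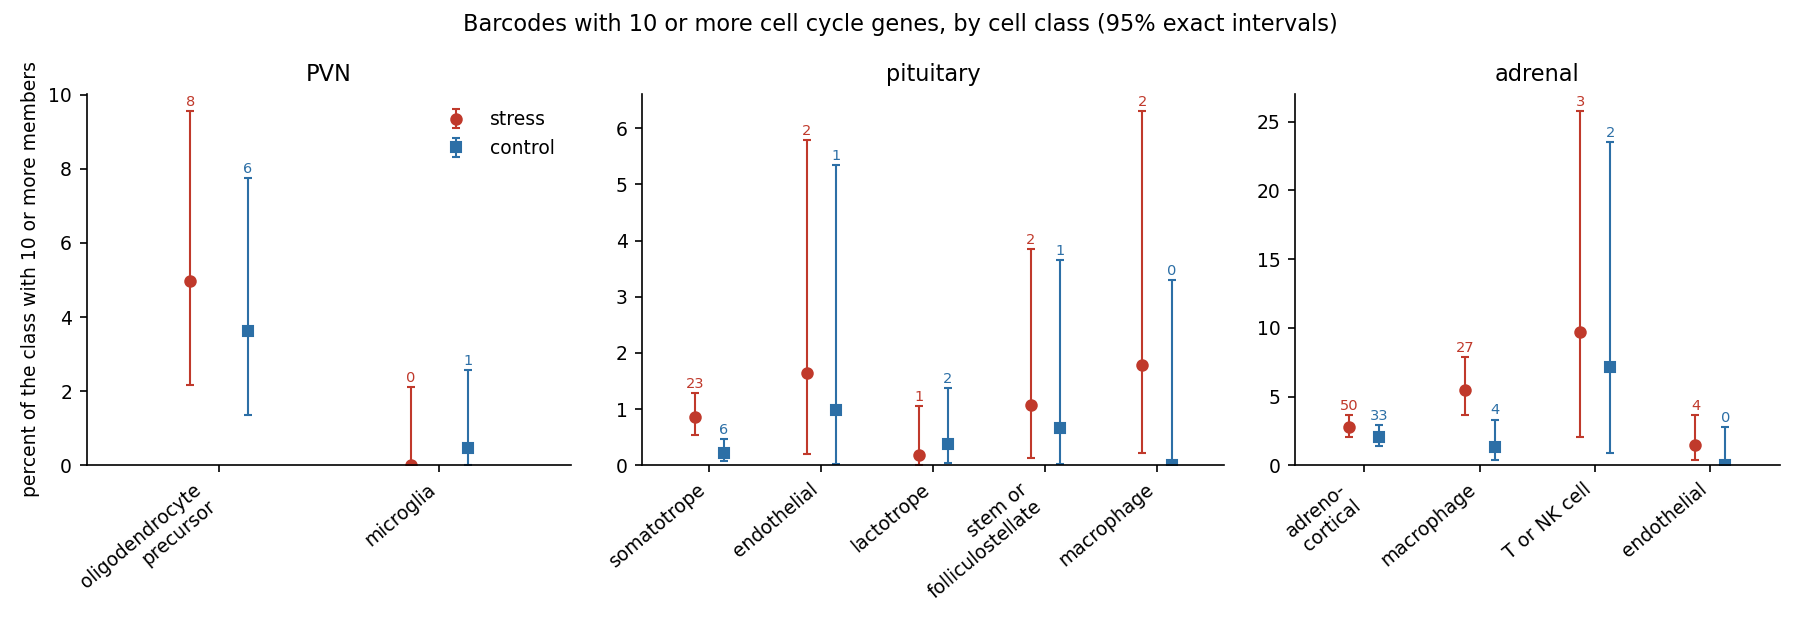
Percent of each cell class with at least 10 of the 35 cell cycle genes, stress (circles) left of control (squares), with exact 95% intervals and the number of barcodes above each interval; mural-like and unnamed barcodes are not drawn. Somatotrope-like cells stand at 0.854% in stress and 0.218% in control, and adrenal macrophage-like cells at 5.49% in stress and 1.31% in control; members on the axis are these genes.

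Markers of the classes that held most of these barcodes were then read in the barcodes with many cell cycle genes. In the PVN, Pdgfra, the growth factor receptor of oligodendrocyte precursors, had 840 counts per 1000000 UMIs (CPM) in the 14 precursor-like barcodes with at least 10 genes and 795 CPM in the 302 with fewer than 5. The precursor markers Ptprz1 (log2 ratio 0.01), Lhfpl3 (-0.24), Cacng4 (-0.27) and Cspg4 (-0.34) had intervals that included 0. C1ql1 was lower, at 327 against 1462 CPM (-2.14), as were the lineage regulators Olig1 (1857 against 3620 CPM, -0.96), Olig2 (-0.85) and Sox10 (-0.58). The 6 precursor markers summed to a median of 3915 CPM in the 14 barcodes and 5446 CPM in the 302. All 14 lay above the level that 95% of other named PVN cells stayed under (874 CPM). Gpr17, a marker of the step towards oligodendrocytes, had 59.9 against 540 CPM in stress and 151 against 473 CPM in control. Neu4 had 165 against 445 CPM in stress and 86.5 against 507 CPM in control. Bmp4, listed with Gpr17 and Neu4 as a marker of newly formed oligodendrocytes, had 0 UMIs in the 14 barcodes and 4 UMIs in the 302. The later oligodendrocyte markers Mog and Mbp had 1 and 2 UMIs in the 14 barcodes and 9 and 83 UMIs in the 302. The counts of Bmp4, Mog and Mbp were low in both groups, and the intervals of all their ratios included 0. In the pituitary, the growth hormone gene Gh had 507463 CPM in 29 somatotrope-like barcodes with at least 10 genes and 570357 CPM in the 5413 with fewer than 5. Their summed marker level, nearly all of it Gh, ran from 205499 to 729734 CPM. It lay above the level that 95% of other named pituitary cells stayed under (177111 CPM) in 29 of 29. Gh itself had 186148 CPM in the other classes. The pituitary regulator Pou1f1 had 323 against 183 CPM in stress and 202 against 206 CPM in control.

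Over all genes tested between barcodes with at least 10 and with fewer than 5 of the 35, of any class, 36.3% (PVN), 24.8% (pituitary) and 11.2% (adrenal) were at least 2-fold higher, and 15.7% (PVN), 7.76% (pituitary) and 7.4% (adrenal) at least 2-fold lower.

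In the adrenal, steroid-synthesis genes were at lower levels in adrenocortical-like barcodes with at least 10 genes than in those with fewer than 5. Star, which carries cholesterol into mitochondria, had 863 against 1822 CPM (log2 ratio -1.08), and Cyp11a1, which cuts its side chain, 2208 against 4810 CPM (-1.12). Cyp11b1, which makes corticosterone, had 522 against 1350 CPM in stress and 115 against 1240 CPM in control. Of 5 markers of the outer cortex, 4 had ratios above 0: Dab2 (999 against 806 CPM, 0.31), the angiotensin receptor gene Agtr1b (51.5 against 38.1 CPM, 0.44), Vsnl1 (317 against 265 CPM, 0.26) and the aldosterone synthase gene Cyp11b2 (30.4 against 22.4 CPM, 0.45). The other, Hsd3b6, was lower (-0.92). Nr5a1, the steroidogenic factor gene, had 185 against 206 CPM (-0.15). The 8 adrenocortical markers summed to a median of 8886 CPM in the 83 barcodes, 18238 CPM in the 3144 with fewer than 5 genes and 956 CPM in other named adrenal cells. Of the 83 barcodes, 80 lay above the level that 95% of those other cells stayed under (2374 CPM), 48 of 50 in stress and 32 of 33 in control. Macrophage markers were found in all 31 macrophage-like barcodes above the same kind of limit, with Csf1r at 511 against 567 CPM and Lyz2 at 2701 against 5832 CPM (-1.11). The others went both ways. Cd14 (240 against 713 CPM, -1.56), Adgre1 (-0.41) and C1qa (-0.24) were lower, and Pf4 (0.43), Cd68 (0.20) and Mrc1 (0.17) were higher.

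The second question was how the level of the whole set differed. Summed over the 35 genes, the PVN had 137 CPM in stress and 135 CPM in control (log2 ratio 0.02, interval -0.05 to 0.08). The pituitary had 110 CPM in stress and 88.0 CPM in control (0.33, 0.27 to 0.39) and the adrenal 619 CPM in stress and 349 CPM in control (0.83, 0.79 to 0.86). Few barcodes carry many of these UMIs, so the intervals on sums are narrower than a count of cells would give. Barcodes with at least 10 genes held 24.7% of the UMIs of the set in PVN stress and 23.9% in PVN control. The shares were 46.4% in pituitary stress and 30.2% in pituitary control, and 67.0% in adrenal stress and 47.0% in adrenal control. When the barcodes with at least 5 genes were left out, the log2 ratio was 0.03 in the PVN, -0.10 (-0.17 to -0.02) in the pituitary and 0.21 (0.15 to 0.27) in the adrenal. Since those barcodes were chosen by the same genes, this describes where the UMIs lay and is no separate comparison. Without Hmgb2 and Pcna the pituitary ratio in the remaining barcodes was 0.02 (-0.08 to 0.12), and the median of all pituitary genes over all kept barcodes was -0.11. In the remaining adrenal barcodes the mitotic genes were at 33.4 CPM in stress and 22.7 CPM in control (0.56, 0.41 to 0.71).

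Mitotic and S-phase genes had different ratios in the pituitary and the adrenal. The 27 mitotic genes summed to 53.8 CPM in PVN stress and 54.5 CPM in PVN control (log2 ratio -0.02), 53.6 CPM in pituitary stress and 34 CPM in pituitary control (0.66, 0.57 to 0.75), and 349 CPM in adrenal stress and 141 CPM in adrenal control (1.31, 1.25 to 1.36). The 7 S-phase genes summed to 52.2 CPM in PVN stress and 48.5 CPM in PVN control (0.11), 35.0 CPM in pituitary stress and 31.2 CPM in pituitary control (0.16, 0.06 to 0.27), and 157 CPM in adrenal stress and 140 CPM in adrenal control (0.17, 0.11 to 0.23). The difference between the ratios of the gene groups was not tested. In the adrenal the larger mitotic sum came with more barcodes and with more mitotic UMIs in each: a barcode with at least 10 genes held 109 mitotic UMIs on average in stress and 78.2 in control. In the pituitary it came with more barcodes but fewer mitotic UMIs in each, 62.2 in stress and 99.3 in control. The PVN had 90.6 in stress and 112 in control. Among adrenocortical-like barcodes the median was 95.5 mitotic and 11 S-phase UMIs in 50 stress barcodes, and 47 mitotic and 16 S-phase UMIs in 33 control barcodes, with ranges of 4 to 584 mitotic UMIs in stress and 4 to 383 in control. The median depth of these barcodes was also larger in stress, at 20835 UMIs, against 15404 UMIs in control, and its part in the counts was not tested. S-phase genes were 10.7% of the S-phase and mitotic UMIs of those barcodes in stress and 19.5% in control. Among macrophage-like barcodes the share was 17.4% in 27 stress barcodes and 16.7% in 4 control barcodes. Single barcodes weighed on these sums, since the 5 barcodes with the most mitotic UMIs held 23.6% of them in the adrenal stress library and 35.9% in the adrenal control library. They held 32.3% in pituitary stress and 50.4% in pituitary control, and 39.4% in PVN stress and 44.7% in PVN control. More than 200 mitotic UMIs were found in 15 adrenal stress and 5 adrenal control barcodes.

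Gene by gene, the 35 cell cycle genes all passed a minimum of 20 UMIs over the libraries of a tissue, and a gene was counted when it differed at least 2-fold. In the adrenal, 24 genes were at least 2-fold higher in stress and 0 were lower. Of all 14109 adrenal genes tested, 3.3% were that much higher and 0.921% that much lower. The 24 were all mitotic, out of 27, and each of the 35 had a log2 ratio above 0. The median was 1.31 over mitotic genes, 0.21 over S-phase genes and 0.02 over all genes. In the pituitary, 3 genes were at least 2-fold higher (Ube2c, Tk1 and Aurkb) and 0 lower, beside 0.809% higher and 1.11% lower of 15443 genes, and 32 of 35 ratios were above 0. The pituitary medians were 0.56 over mitotic genes, 0.17 over S-phase genes and -0.11 over all genes. In the PVN, 0 genes were 2-fold higher and 0 lower, beside 0.444% higher and 0.827% lower of 16208 genes, and 20 of 35 ratios were above 0. The pituitary count was 7 with TMM scaling, which shifts each ratio there by 0.11, and 6 with doublets kept. Without the barcodes that held at least 5 of the genes, 2 (PVN), 0 (pituitary) and 6 (adrenal) were 2-fold higher. The genes share their barcodes, so these counts are not counts of independent events.

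Mki67, the proliferation marker behind the Ki-67 stain (chr7:135689784-135716361, minus strand), had 2.62 CPM in stress and 2.45 CPM in control in the PVN, 2.44 CPM in stress and 1.45 CPM in control in the pituitary, and 11.5 CPM in stress and 5.52 CPM in control in the adrenal. It was found in 45 stress and 52 control PVN barcodes, but 8 of the stress and 4 of the control barcodes held at least 10 of the genes. In the adrenal 70 of 86 stress and 30 of 49 control barcodes did. Top2a, the enzyme that untangles copied DNA (chr11:98992943-99024189, minus strand), had 2.87 CPM in stress and 3.08 CPM in control in the PVN, 3.09 CPM in stress and 1.60 CPM in control in the pituitary, and 18.7 CPM in stress and 8.19 CPM in control in the adrenal. Its log2 ratio was -0.10 (-0.55 to 0.34), 0.95 (0.55 to 1.37) and 1.19 (0.97 to 1.42) in the same order of tissues. The log2 ratio of Mki67 was 0.10 (-0.39 to 0.58), 0.75 (0.32 to 1.2) and 1.06 (0.78 to 1.35). Barcodes with Mki67 thus mostly held few of the other genes in the PVN and mostly held many in the adrenal.

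Ube2c, which hands ubiquitin to the targets of the mitotic ligase (chr2:164769898-164778822, plus strand, promoter shown above), had the highest ratio in both the pituitary and the adrenal. It had 29.7 CPM in the adrenal stress library and 7.80 CPM in the adrenal control library (log2 ratio 1.93, 1.72 to 2.15). The pituitary values were 3.44 CPM in stress and 1.24 CPM in control (1.47, 1.04 to 1.93), and the PVN values 3.32 CPM in stress and 2.58 CPM in control (0.36, -0.09 to 0.82). In the PVN, 24 of the 95 stress UMIs of Ube2c lay in 7 erythroid-like barcodes with fewer than 5 of the genes, at 90.7 CPM (58.1 to 135) over 53 stress cells of that class, and the 28 control cells had 0 UMIs. Cenpf, a kinetochore protein (chromosome 1), had 31.5 CPM in stress and 9.89 CPM in control in the adrenal (1.67), 3.74 CPM in stress and 2.22 CPM in control in the pituitary (0.74) and 4.51 CPM in stress and 6.03 CPM in control in the PVN (-0.42). Bub1, a kinase of the spindle checkpoint (chromosome 2), was counted rarely, with 57 UMIs in stress and 16 UMIs in control in the adrenal (1.65, 0.86 to 2.58), 14 stress and 10 control UMIs in the pituitary (0.37) and 15 stress and 8 control UMIs in the PVN (0.93, -0.36 to 2.41).

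In the pituitary the next highest were Tk1, the thymidine kinase (chromosome 11), with 1.16 CPM in stress and 0.441 CPM in control from 59 UMIs in stress and 21 UMIs in control (1.37, 0.66 to 2.19), and Aurkb, the Aurora kinase of the chromosomal passenger complex (chromosome 11), with 0.668 CPM in stress and 0.273 CPM in control from 34 UMIs in stress and 13 UMIs in control (1.26, 0.33 to 2.34). The lowest there were Kif23, a motor of the central spindle (0.609 CPM in stress and 0.651 CPM in control, -0.09), Hmgb2 (21.8 CPM in stress and 22.8 CPM in control, -0.07) and the Polo-like kinase gene Plk1 (0.511 CPM in stress and 0.525 CPM in control, -0.04). In the adrenal Tk1 had 6.69 CPM in stress and 4.19 CPM in control (0.67) and Aurkb 3.87 CPM in stress and 1.55 CPM in control (1.31). In the PVN Tk1 had 31 UMIs in stress and 28 UMIs in control and Aurkb 19 UMIs in stress and 17 UMIs in control.

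The PVN ratios scattered on both sides of 0. After Bub1 the highest were Hmmr, a spindle protein, with 28 UMIs in stress and 16 UMIs in control (0.85, -0.07 to 1.85), and Kif23 with 49 UMIs in stress and 32 UMIs in control (0.67, 0.00 to 1.37). The lowest were Plk1, with 22 UMIs in stress and 43 UMIs in control (-0.89, -1.72 to -0.13), Kif11, with 49 UMIs in stress and 81 UMIs in control (-0.66, -1.21 to -0.14), and Bub1b, with 18 UMIs in stress and 29 UMIs in control (-0.61, -1.56 to 0.27). Each of these 3 was above 0 in the adrenal (1.5 for Plk1, 1.64 for Kif11 and 0.80 for Bub1b). Most of the Kif11 UMIs of the PVN came from outside the many-gene barcodes, from ependymal-like cells, as described further on.

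**Figure D3:**
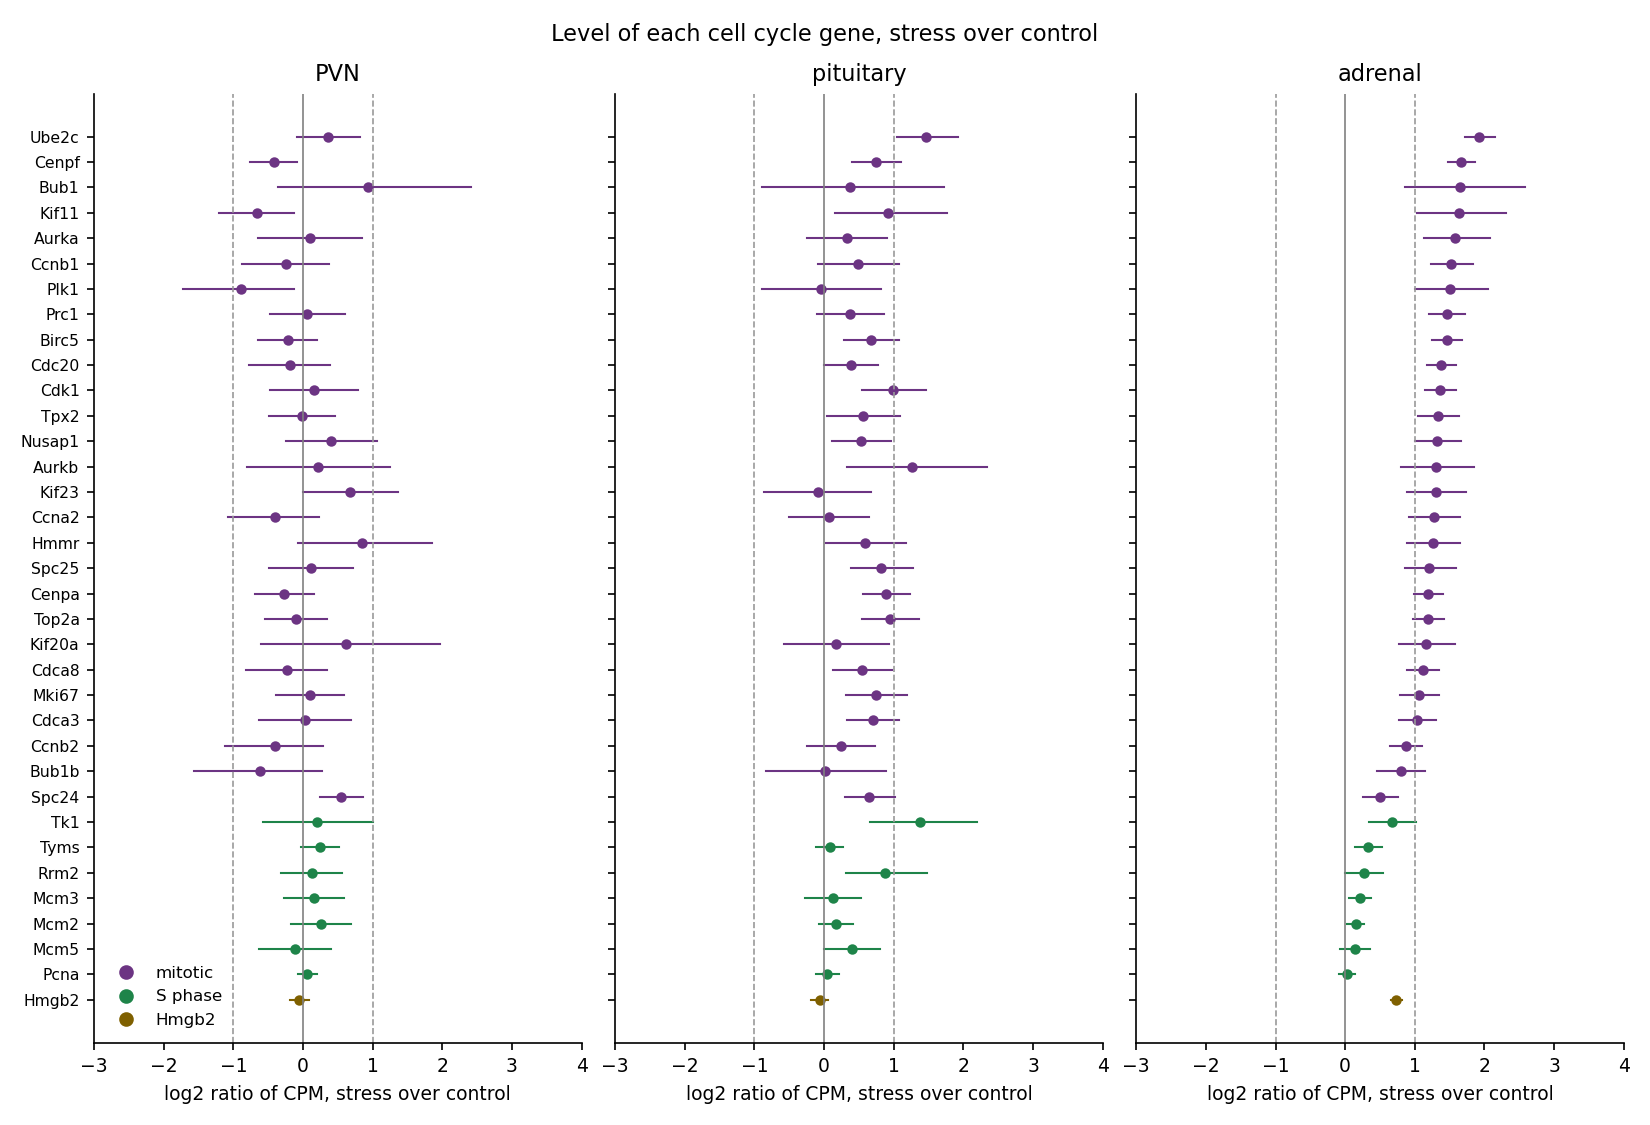
Log2 ratio of CPM, stress over control, of each of the 35 cell cycle genes in the 3 tissues, ordered by the adrenal ratio within mitotic genes (purple), S-phase genes (green) and Hmgb2 (brown). Lines are exact 95% counting intervals of the ratio without added counts, and dashed lines mark a 2-fold difference: 24 mitotic genes lie past it in the adrenal and none lies past it in the PVN.

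The lowest adrenal ratios were those of Pcna, Mcm5 and Mcm2. Pcna, the sliding clamp of DNA polymerases (chr2:132249162-132253314, minus strand), had 44.8 CPM in stress and 44.0 CPM in control in the adrenal (0.03, -0.09 to 0.14), 11.8 CPM in stress and 11.4 CPM in control in the pituitary (0.05) and 30.3 CPM in stress and 29.1 CPM in control in the PVN (0.06). Mcm5, part of the replicative helicase (chromosome 8, promoter shown above), had 12.5 CPM in stress and 11.4 CPM in control in the adrenal (0.14), 2.52 CPM in stress and 1.91 CPM in control in the pituitary (0.40) and 2.13 CPM in stress and 2.31 CPM in control in the PVN (-0.12). Mcm2, its partner (chromosome 6), had 42.9 CPM in stress and 38.6 CPM in control in the adrenal (0.15), 6.05 CPM in stress and 5.37 CPM in control in the pituitary (0.17) and 3.53 CPM in stress and 2.95 CPM in control in the PVN (0.26). Rrm2, the small subunit of ribonucleotide reductase (chromosome 12), had 1.51 CPM in stress and 0.819 CPM in control in the pituitary (0.88, 0.31 to 1.48), 8.54 CPM in stress and 7.08 CPM in control in the adrenal (0.27) and 3.25 CPM in stress and 2.98 CPM in control in the PVN (0.12). Hmgb2, a DNA-bending chromatin protein (chr8:57511907-57515999, plus strand), had 114 CPM in stress and 68.3 CPM in control in the adrenal (0.74, 0.66 to 0.82), 21.8 CPM in stress and 22.8 CPM in control in the pituitary and 31.0 CPM in stress and 32.1 CPM in control in the PVN (-0.05). Pcna, Tyms, Ccnb1 and Ccnb2 have pseudogenes named after them in the annotation. A gene on the other strand overlaps 13 of the 35 genes, among them Mki67, Top2a, Ube2c and Cenpf. A gene on the same strand overlaps 4, which are Kif11, Nusap1, Top2a and Tpx2. How such reads were assigned was not given in the sources used here, and the counts of these genes are uncertain to that extent.

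The genes differed in how many of their UMIs lay outside the many-gene barcodes. In the adrenal, 77.5% of the Mcm2 UMIs, 68.9% of the Pcna UMIs and 65.9% of the Mcm3 UMIs lay in barcodes with fewer than 5 of the genes. In the pituitary the largest shares were 92.8% for Pcna, 91.3% for Mcm2 and 89.2% for Tyms. In the PVN they were 95.7% for Pcna, 91.5% for Tyms, the thymidylate synthase, and 87.8% for Mcm2. By contrast, Bub1 had 1 UMI in the 4576 adrenal barcodes with fewer than 5 of the genes. Top2a was found in 106 of 128 adrenal barcodes with at least 10 genes and in 29 of the 4576 others (0.634%), and in 15 of 15 PVN barcodes and in 20 of 6926 (0.289%). Pcna was found in 92 of 128 and in 1385 of 4576 (30.3%) adrenal barcodes.

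**Figure D4:**
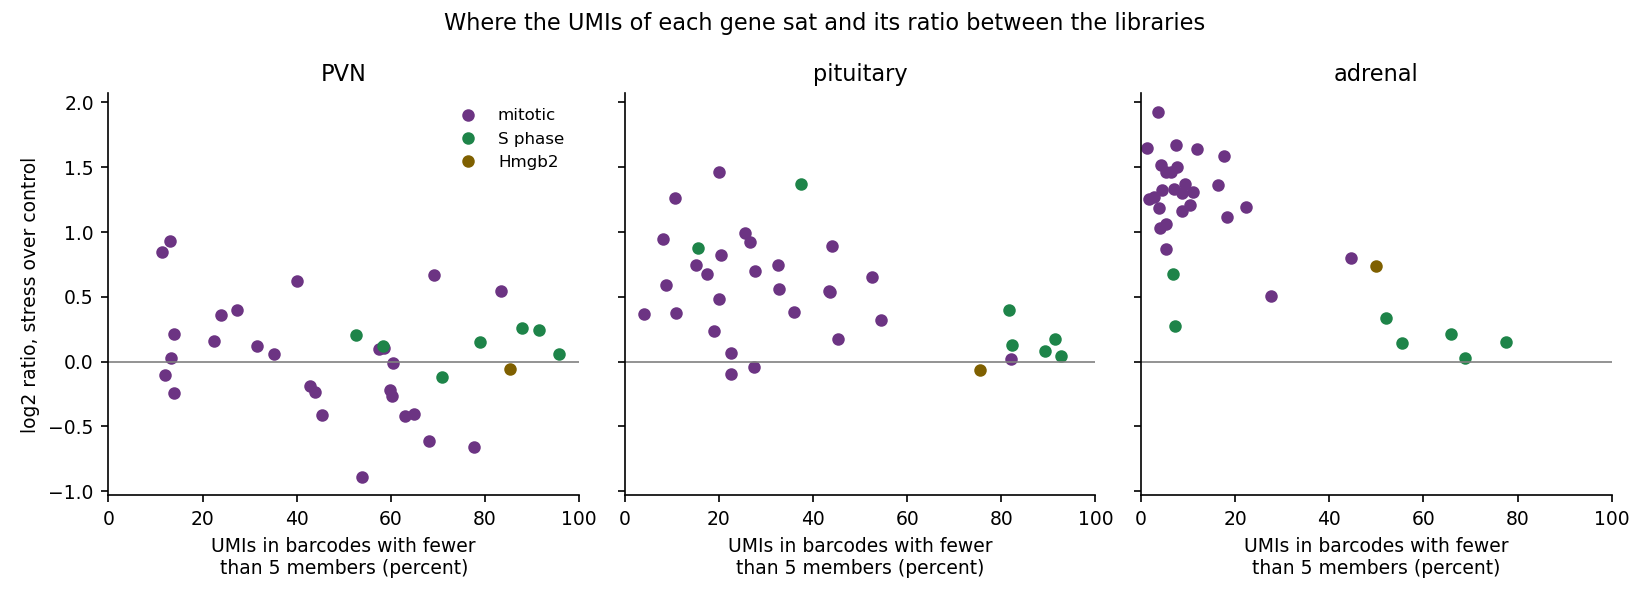
For each of the 35 cell cycle genes, the percent of its UMIs, over stress and control together, that lay in barcodes with fewer than 5 of the genes (horizontal axis) and its log2 ratio of stress over control (vertical axis). In the adrenal the S-phase genes Mcm2, Pcna and Mcm3 stand at 65.9% to 77.5% with ratios from 0.03 to 0.21; the points share their libraries and barcodes.

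Outside the many-gene barcodes, some of these genes kept a pattern of their own among cell classes. In the PVN, ependymal-like cells with fewer than 5 of the genes had 17.6 CPM of Kif11 in stress (11.4 to 26.0) and 25.1 CPM in control (18.2 to 33.7), against 0.60 CPM in stress and 0.642 CPM in control in neuron-like cells. They had 16.9 CPM in stress and 15.4 CPM in control of Cenpf, 13.4 CPM in stress and 16 CPM in control of Rrm2 and 10.6 CPM in stress and 6.27 CPM in control of the spindle gene Tpx2. The Kif11 UMIs of these cells came from 22 stress and 37 control barcodes. The libraries of both conditions thus held ependymal-like barcodes with a few mitotic genes and no barcode of that class with 10. Endothelial-like cells were highest in Mcm3, with 55.5 CPM in stress and 57.6 CPM in control in the adrenal and 46.8 CPM in pituitary stress, where pituitary control was highest in macrophage-like cells (35.3 CPM). Tyms in pituitary endothelial-like cells had 61.8 CPM in stress and 50.6 CPM in control, the highest class in stress, while in control 2 UMIs in 1 mural-like barcode gave 52.4 CPM. Hmgb2 was highest in T or NK cell-like (397 CPM in stress and 547 CPM in control) and macrophage-like cells (311 CPM in stress and 271 CPM in control) of the adrenal. The adrenocortical-like cells had 41.8 CPM in stress and 37.3 CPM in control of Mcm2 in barcodes with fewer than 5 of the genes, against 15.0 CPM in stress and 11.2 CPM in control in endothelial-like cells. RNA free in the suspension can add single UMIs to any barcode, and its part in these values was not tested.

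Other cell cycle genes, listed by role and not among the 35, were read in the same barcodes. Of a list of 44 further G2 and M genes, those with enough UMIs were at least 2-fold higher in barcodes with at least 5 of the 35 genes than in the rest in 41 of 41 cases in the PVN, 42 of 43 in the pituitary and 41 of 44 in the adrenal. For 35 further S-phase genes the counts were 29 of 33 (PVN), 32 of 33 (pituitary) and 33 of 35 (adrenal). No gene of either list was 2-fold lower at this limit of 5 genes. Over all genes, 25.6% (PVN), 26.7% (pituitary) and 4.76% (adrenal) were that much higher in the same comparisons, and 12.1% (PVN), 5.15% (pituitary) and 5.98% (adrenal) that much lower. The highest were Pbk, a mitotic kinase, in the PVN (log2 ratio 11.85) and adrenal (8.64) and Ckap2l, a spindle protein, in the pituitary (10.37), each close to 0 in other barcodes. Next were Fam64a (9.68) and Esco2 (9.13), which acetylates cohesin, in the PVN, Pbk (10.23) and Mxd3 (10.18) in the pituitary, and Mxd3 (8.52) and Esco2 (8.08) in the adrenal. Over all the lists, the lowest were Stmn1 (-0.76), Hist1h4d (-0.30) and Btg1 (-0.26) in the PVN, Cdkn2b (-0.77), Ccnd2 (-0.71) and Cdk6 (-0.34) in the pituitary, and Cdkn2b (-0.20), Btg1 (-0.18) and Hist1h2bc (-0.15) in the adrenal. Stmn1, which binds tubulin, is also made by neurons, and its PVN level was 892 CPM in barcodes with at least 5 genes and 1507 CPM in the rest. At the limit of 10 genes, 40 of 41 G2 and M genes were 2-fold higher and 1 was 2-fold lower in the PVN. Of all PVN genes, 36.3% were that much higher and 15.7% lower. None of the G2 and M genes was 2-fold lower in the pituitary or the adrenal at that limit.

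Between the libraries, the further G2 and M genes had higher ratios than the further S-phase genes in the adrenal, and the difference was not tested. There, 23 of 44 G2 and M genes were at least 2-fold higher in stress and 42 of 44 had a ratio above 0, with a median log2 ratio of 1.05, while 1 of 35 S-phase genes (E2f8, 26 UMIs in stress and 11 UMIs in control) was 2-fold higher, with a median of 0.18, beside 3.3% of all adrenal genes. The 2 ratios below 0 were those of Tubb4b (-0.37) and Pttg1 (-0.07). In the pituitary 2 of 43 G2 and M genes (Mxd3 and Esco2) and 2 of 33 S-phase genes (Dtl and 2810417H13Rik) were 2-fold higher, beside 0.809% of all pituitary genes, and the medians of the 2 lists were alike, at 0.14 and 0.13. In the PVN 1 of 41 G2 and M genes was (Fam64a, 22 UMIs in stress and 11 UMIs in control) and 0 of 33 S-phase genes, beside 0.444% of all PVN genes.

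D-type cyclins, which act in G1, and inhibitors of cyclin-dependent kinases were read in barcodes with at least 10 of the 35 genes beside those with fewer than 5. Of 17 genes listed as brakes on division, 8 were at least 2-fold higher and 2 lower in the PVN, 8 higher and 0 lower in the pituitary, and 6 higher and 0 lower in the adrenal. Over all genes, 36.3% were that much higher and 15.7% lower in the PVN, 24.8% higher and 7.76% lower in the pituitary, and 11.2% higher and 7.4% lower in the adrenal, so the PVN counts lay near those of all genes. The inhibitor gene Cdkn2c had 499 CPM in the 15 PVN barcodes with at least 10 genes and 2.94 CPM in those with fewer than 5 (log2 ratio 7.42). Its values were 206 against 22.2 CPM in the pituitary (3.22) and 168 against 83.9 CPM in the adrenal (1.00). Cdkn2d had log2 ratios of 2.26 (PVN), 2.51 (pituitary) and 2.30 (adrenal), and Cdkn1a, a target of p53, 2.83 (PVN), 2.36 (pituitary) and 1.14 (adrenal). The cyclin gene Ccnd1 had a log2 ratio of 3.70 in the PVN (466 against 36.1 CPM), 0.33 in the pituitary and -0.19 in the adrenal. Of 8 listed G1 genes, the D-type cyclins among them, 8 were at least 2-fold higher and 0 lower in the PVN. In the pituitary 2 were higher and 2 lower, and in the adrenal 2 higher and 0 lower. These comparisons set barcodes of a few classes beside all other barcodes of the tissue, so class and division cannot be told apart in them. The single genes named were picked from their lists after their values were seen. The inhibitors named all had ratios above 0, and the 2 brakes that were lower in the PVN are not among them. Over all 17 brakes the median log2 ratio was 0.58 (PVN), 0.54 (pituitary) and 0.32 (adrenal).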

How the data were processed

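The authors deposited unnormalised UMI counts per gene and barcode for each library. Cell Ranger 2.1.1, mm10 and Scanpy are named, per the submitters' processing notes. Strand and cell calling are not given in the sources used here. Barcodes needed 200 detected genes and no more than 25% mitochondrial UMIs, and the highest doublet scores from simulated doublets (2 per cell) were left out at a preset rate that grows with the number of cells, so the rate set their number. Cells were clustered per tissue (scanpy 1.11.5; 2000 variable genes, 30 principal components, 15 neighbours, Leiden resolution 1, 5 iterations). Listed cell cycle genes were left out, as were stress-response, mitochondrial, ribosomal, haemoglobin and sex-linked genes. Clusters were called X-like from 3 or more markers, each detected in 10% of cells or more and at 2-fold or more over the lower quartile of clusters. Naming rules were adjusted once cluster genes had been viewed. UMIs were summed per library, scaled to CPM, and set as log2 ratios of stress over control with 0.5 UMI added. Levels have exact Poisson intervals, shares exact Clopper-Pearson intervals and ratios exact conditional intervals (all 95%, scipy 1.17.1); a count of 0 allows up to 3 counts. TMM factors came from edgeR 4.0.16. Genes needed 20 UMIs over both libraries and a 2-fold difference to be counted. No test between conditions was possible with 1 library a group. The ratio and its count rule were tested on simulated data, in which the sum of each gene was drawn as an independent Poisson count. UMIs gathered in few barcodes and genes that share barcodes, as in these data, were not simulated, so that test does not cover them. The genes named are Mki67, Top2a, Pcna, Hmgb2, the 3 highest and lowest ratios and the 3 genes with the most UMIs outside many-gene barcodes in each tissue; Rrm2, Kif11, the barcode limit of 10 genes, the class levels and the promoters shown were chosen after values were seen. The genes, lists and promoter elements were chosen with earlier results of these data known. All intervals cover counting error only. Alternatives covered the number of genes required, depth, filters, doublets, scaling, gene and class selection, and clustering.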

Additional observations from a re-analysis of the deposited data

Results flagged for a closer look

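The share of barcodes with at least 5 of the 35 cell cycle genes differed in direction between tissues. Its log2 ratio of stress over control was -0.29 (PVN), 1.45 (pituitary) and 0.11 (adrenal). With 1 library a group, the difference between tissues was not tested. The PVN interval (-1.22 to 0.61) and the adrenal interval (-0.21 to 0.44) included 0, and the pituitary interval (0.62 to 2.40) did not. At the limit of 10 genes the PVN ratio was 0.20, from 8 stress and 7 control barcodes.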

How the results depend on the processing

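Of 99 values recomputed under alternatives, 79 stayed within the interval of the reported value or, for counts of genes, near the reported count. Another 19 moved and 1 reversed, a label kept for results whose interval excluded 0. Signs also changed within intervals that included 0. The log2 ratio of the PVN share (-0.29 as reported) was 0.20 with at least 8 or at least 10 genes and 0.02 with at least 5 mitotic genes. That of the adrenal share was -0.08 without blood and immune classes, and the PVN summed level (0.02) was -0.01 as the mean over barcodes. No paired analysis was possible because each group held 1 library. The log2 ratio of the share of barcodes was 0.54 in the pituitary with at least 3 genes required. In the adrenal (0.11 as reported) it was 0.74 with at least 8 genes, 0.78 with at least 10, 0.61 with at least 5 mitotic genes and 0.79 after thinning. The summed level in the pituitary (0.33) was 0.44 with TMM scaling, which shifts every pituitary ratio by 0.11, and 0.51 without Hmgb2 and Pcna. It reversed to -0.10 without the barcodes that held at least 5 genes, close to the median of all pituitary genes (-0.11). Without Hmgb2 and Pcna as well it was 0.02. In the adrenal (0.83) it was 0.77 with neither the filter on barcodes nor the removal of doublets, 0.57 as the mean over barcodes, 0.96 without Hmgb2 and Pcna, 0.21 without barcodes of at least 5 genes and 0.77 without blood and immune classes. The number of genes 2-fold higher without barcodes of at least 5 genes was 2 (PVN), 0 (pituitary) and 6 (adrenal), where 29, 26 and 28 of the 35 genes passed the minimum. It was 21 in the adrenal without macrophage-like barcodes. In the pituitary it was 7 with TMM scaling and 6 with doublets kept, against 3 as reported. The leading class held 53.3% of PVN and 71.6% of adrenal barcodes with at least 5 genes, and 93.3% and 64.8% of those with at least 10. The cause was not tested where the alternative does not itself remove barcodes or genes. In the PVN the values for barcodes with at least 10 genes rest on 15 barcodes.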

Other observations

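Among barcodes removed by doublet score, those with at least 10 of the 35 genes were 1 of 101 in PVN stress and 0 of 105 in PVN control, 2 of 207 in pituitary stress and 1 of 213 in pituitary control, and 1 of 63 in adrenal stress and 0 of 39 in adrenal control. Of the 2 pituitary barcodes with at least 10 genes called macrophage-like, 1 had no UMI of the 8 macrophage markers.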
